A study of Mus musculus with 18 samples.

Results

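The genes followed here in mouse thyroid are 10 markers of fibroblasts: Dcn, Lum, Pdgfra, Pi16, Mfap5, Dpt, Cd34, Clec3b, Ly6a and Thy1. The 10 are known fibroblast markers, and the list was chosen with earlier results of these data known, so their directions are a description. All non-control probes whose accession maps to one of them were used. All 10 passed the filter on dim probes, out of 17929 genes tested, and they were read by 12 probes, with a second probe for Pdgfra and for Thy1. RNA came from whole thyroids of C57BL/6 mice aged 1 month, either wild type (WT) or Glis3KO2 (KO2), a line in which the gene for the transcription factor Glis3 is targeted. The 5 WT and 5 KO2 mice on the normal NIH31 diet form one pair of groups, and 4 WT and 4 KO2 mice given a low-iodine diet for 6 days form the other. Each sample was hybridised to 1 single-colour Agilent mouse array. The labels do not say what part of Glis3 is deleted or whether the mice were littermates, so p-values measure the spread between these arrays.

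Fibroblasts build and maintain the connective tissue around and between the follicles of the thyroid. They secrete collagens and the small leucine-rich proteoglycans that coat collagen fibrils, and they respond to platelet-derived growth factor through Pdgfra. A population that lies around vessels and is known for Pi16, Dpt, Cd34 and Ly6a is described in many mouse organs as a reservoir of fibroblasts. None of the markers is exclusive. Cd34 and Ly6a are also made by endothelium, and Thy1 is abundant on mouse thymocytes, T cells and neurons. The comparison of KO2 with WT on each diet asks whether the 10 markers shift in one direction, as a change in the share of fibroblasts in the gland would give. In RNA from whole tissue, fewer cells of a type and less RNA per cell cannot be told apart.

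Levels are given as log2 of the processed signal minus the 75th percentile of the array, so 0 is that percentile. A level of one probe says nothing against the level of another, because probes differ in brightness. Differences are KO2 minus WT on the log2 scale with the standard error (SE) of one limma model over all 18 arrays, and a gene is called at a Benjamini-Hochberg adjusted p under 0.05 over all 17929 genes. Every marker was well above background on all 18 arrays, where 60.1% to 90.6% of the spots were so. KO2 normal replicate 4 was the dimmest array and WT low-iodine replicate 2 the brightest, with a median signal of 191.5 against 61.6 to 85.5 on the other low-iodine arrays. In KO2 normal replicate 4 the mean level of 12 cell division genes was −3.29, against −5.55 to −4.81 on the other KO2 normal arrays. Its mean level of 12 skeletal muscle genes, 5.32, was the highest of all arrays. The part of tissue content in its marker levels was not tested. The correlation between arrays of 1 group ran from 0.944 to 0.988. Glis3 itself differed by 0.45 ± 0.42 (SE, limma adjusted p = 0.732) on the normal diet and by −1.36 ± 0.47 (adjusted p = 0.0619) on low iodine, and its probe may lie outside the deleted part, so it does not check the genotype labels. Tg, the thyroglobulin gene that defines follicular cells, was well above background on every array.

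On low iodine the called markers did not all share one direction. There 6 of 10 were called, where 15.0% of all genes were. Of these, 5 were lower in KO2 (Pi16, Mfap5, Thy1, Cd34 and Ly6a; 7.18% of all genes were lower) and 1 was higher (Dcn; 7.81% of all genes were higher). Dcn, read by 1 probe, was thus the only marker called higher, a share near that of all genes. The 4 not called were Lum, Dpt, Pdgfra and Clec3b. On the normal diet 1 of 10 was called, Thy1, which was lower in KO2, where 1.39% of all genes were called (0.513% higher and 0.876% lower). The sign of the difference was negative for 9 of 10 markers on the normal diet, with a median of −0.74 against 0.05 over all genes. The exception there was Dcn, at 0.18 (95% interval −0.25 to 0.61), so movement in 2 directions is not shown on that diet. On low iodine the sign was negative for 7 of 10, with a median of −0.95 against −0.02 over all genes. The arrays of the 2 genotypes did not overlap for 8 of 10 markers on low iodine, 1 higher and 7 lower in KO2, where 19.7% of all genes did not overlap (10.6% higher and 9.10% lower). With median scaling only 3 markers lay lower without overlap (Pi16, Mfap5 and Thy1) and 2 higher (Dcn and Clec3b), and Lum, Dpt, Cd34 and Ly6a overlapped. All 10 markers overlapped on the normal diet, where 3.52% of all genes did not (1.89% higher and 1.63% lower). There Lum and Clec3b lay lower without overlap with median scaling, and Lum, Clec3b and Thy1 on unscaled values. The shares of all genes without overlap were counted only with the scaling used for the levels. The marker counts with median scaling and on unscaled values thus have no background. Whether they differ from those of all genes was not tested.

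**Figure D1:**
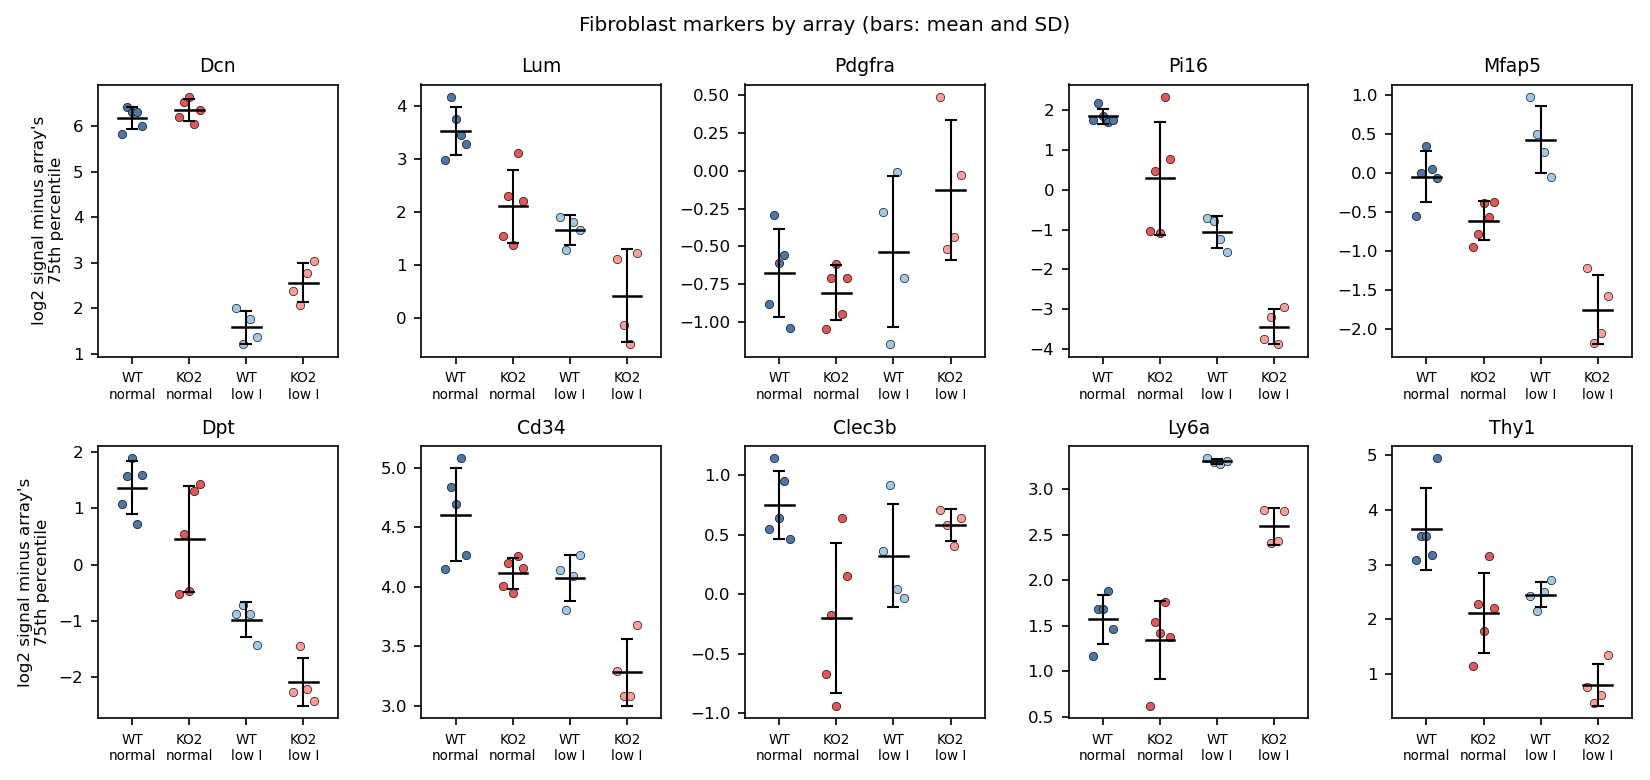
Log2 level of each fibroblast marker on each array, minus the array's 75th percentile, for WT and KO2 mice on the normal (5 and 5 arrays) and low-iodine diets (4 and 4 arrays); points are arrays, and bars are the mean and SD. Each panel has its own scale; with this scaling, on low iodine every KO2 array lies below every WT array for Lum, Pi16, Mfap5, Dpt, Cd34, Ly6a and Thy1 and above for Dcn, and the Dcn means are 1.58 and 2.57 there against 6.18 and 6.36 on the normal-diet arrays.

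The collagen-binding proteoglycans came first. Dcn encodes decorin, which binds collagen fibrils and sequesters growth factors. On low iodine its levels were 2.01, 1.21, 1.76 and 1.37 in WT and 2.39, 2.07, 2.77 and 3.05 in KO2. Every KO2 array was above every WT array, and the difference was 0.99 ± 0.23 (1.98-fold higher, adjusted p = 0.00762). It was 1.11 within slide 4 and 0.86 within slide 5. The direction and the lack of overlap were the same under all 4 ways of scaling the arrays, but the call was lost on unscaled values (adjusted p = 0.0649) and when only the low-iodine arrays were fitted (adjusted p = 0.0583). Normal-diet levels of Dcn were 5.84 to 6.42 in WT, with a median of 6.31, and 6.06 to 6.65 in KO2. These ranges overlapped, and the difference of 0.18 ± 0.20 was not called (adjusted p = 0.786).

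Lum encodes lumican, a proteoglycan of the same family that regulates the width of collagen fibrils. In the RefSeq gene order Dcn and Lum are neighbours on chromosome 10, followed by Kera and Epyc, which are genes of that family too. On low iodine Lum levels were 1.91, 1.27, 1.81 and 1.65 in WT and 1.10, −0.15, −0.51 and 1.22 in KO2. All KO2 arrays were below all WT arrays, 2 of them only just, and the difference of −1.25 ± 0.41 missed the threshold (adjusted p = 0.0514). Normal-diet levels were 2.98, 4.18, 3.76, 3.45 and 3.29 in WT and 1.54, 2.31, 1.37, 3.11 and 2.20 in KO2. Only KO2 replicate 4 reached the WT range, and the difference of −1.43 ± 0.37 was not called (adjusted p = 0.0679). Without that array it was −1.68 and passed (adjusted p = 0.0135). The differences of the neighbouring genes Dcn and Lum thus had opposite signs on low iodine, though only Dcn was called. On the normal diet neither was called, and no direction can be read for Dcn (95% interval −0.25 to 0.61).

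Among the other small leucine-rich proteoglycans, 2 of 9 measured genes fell on low iodine and none rose. Bgn, the biglycan gene, differed by −2.16 ± 0.24 (adjusted p = 2.6e-05) and Aspn, the asporin gene, by −1.46 ± 0.28 (adjusted p = 0.00207). Chad, the gene of chondroadherin, differed by −0.89 ± 0.32 and was not called (adjusted p = 0.0726). None of the 9 was called by limma on the normal diet, where 4 had an unadjusted p under 0.05. On low iodine Dcn was the only measured gene of the family, among 11, that was called higher. That share is near the 7.81% of all genes called higher there.

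Mfap5 and Dpt encode proteins that organise the extracellular matrix. Mfap5 is a glycoprotein of elastic microfibrils. On low iodine its levels were 0.97, 0.50, 0.26 and −0.05 in WT and −1.22, −2.18, −2.05 and −1.58 in KO2. The genotypes lay more than 1 log2 unit apart, and the difference was −2.18 ± 0.25 (4.53-fold lower, adjusted p = 3.59e-05). It was −2.13 within slide 4 and −2.22 within slide 5, and the call held in all 31 alternative analyses. Its normal-diet levels were −0.56, −0.01, 0.34, 0.05 and −0.07 in WT and −0.95, −0.78, −0.39, −0.57 and −0.38 in KO2. The KO2 arrays were on the low side but overlapped WT, and the difference of −0.57 ± 0.23 was not called (adjusted p = 0.273). The test of the difference between the diets gave −1.61 ± 0.34 (genotype by diet interaction, adjusted p = 0.0272), which made Mfap5 the only 1 of 10 markers called there, where 1.22% of all genes were called. The diets lay on different slides and scanners, so a different response of those arrays cannot be told apart from the diet. The interaction call was lost in 7 of 30 alternatives. Among them were median scaling (adjusted p = 0.133), unscaled values (adjusted p = 0.0587) and leaving out KO2 normal replicate 3 (adjusted p = 0.0546), WT low-iodine replicate 1 (adjusted p = 0.057) or KO2 low-iodine replicate 2 (adjusted p = 0.0514). Leaving out the brightest and the dimmest array together gave −1.58 (adjusted p = 0.0578).

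Of the other genes of elastic microfibrils, 7 of 13 fell on low iodine and none rose. Fbn1, which encodes fibrillin-1, the backbone of the microfibril, differed by −2.93 ± 0.36 (adjusted p = 6.58e-05). Eln, the elastin gene, differed by −2.15 ± 0.30 (adjusted p = 0.000158), and Mfap4, which encodes a microfibril-associated protein, by −1.85 ± 0.26 (adjusted p = 0.000179). Mfap4 alone fell on the normal diet (−1.70 ± 0.23, adjusted p = 0.00337).

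Dpt encodes dermatopontin, a small matrix protein that binds decorin and collagen. On low iodine its levels were −0.88, −0.72, −0.88 and −1.43 in WT and −2.25, −1.45, −2.20 and −2.41 in KO2. The highest KO2 array lay just under the lowest WT array, and the difference of −1.10 ± 0.41 was not called (adjusted p = 0.0822). The normal-diet difference was −0.91 ± 0.36 (adjusted p = 0.274). There 2 of the 5 KO2 arrays, at 1.30 and 1.43, lay within the WT range of 0.72 to 1.88.

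Pi16 and Clec3b both mark the fibroblasts around vessels, and Pi16 encodes a secreted or membrane-linked peptidase inhibitor. Pi16 levels on low iodine were −0.71, −0.78, −1.24 and −1.56 in WT and −3.75, −3.21, −3.89 and −2.96 in KO2. No KO2 array came within 1 log2 unit of WT, and the difference of −2.38 ± 0.54 (5.21-fold lower, adjusted p = 0.007) was the largest among the 10 markers. It was −2.62 within slide 4 and −2.15 within slide 5. On the normal diet WT arrays lay close together, at 1.77, 2.18, 1.85, 1.71 and 1.75, while KO2 arrays were spread, at −1.04, 0.48, −1.09, 2.34 and 0.77. KO2 replicate 4 exceeded every WT array, whereas the other 4 KO2 arrays were below them all. The difference of −1.56 ± 0.48 was not called (adjusted p = 0.136), and without that replicate it was −2.07 (adjusted p = 0.0036).

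Clec3b encodes tetranectin, a secreted lectin-like protein that binds plasminogen. On low iodine its levels were 0.36, 0.92, 0.04 and −0.03 in WT and 0.71, 0.58, 0.40 and 0.64 in KO2. The KO2 arrays lay within the WT range, and the difference was 0.26 ± 0.29 (95% interval −0.36 to 0.88, adjusted p = 0.642). That interval excludes a fall of the size seen for Pi16. Normal-diet levels were 0.55, 1.14, 0.64, 0.95 and 0.46 in WT and −0.67, −0.18, −0.94, 0.64 and 0.15 in KO2. There the difference was −0.95 ± 0.26 (adjusted p = 0.0881), and −1.16 (adjusted p = 0.0114) without KO2 replicate 4, the highest KO2 array. The interaction for Clec3b was 1.21 ± 0.39 and was not called (adjusted p = 0.153). Pi16 and Clec3b were nevertheless the pair of markers that varied most alike around their group means, with a Pearson correlation of 0.85 over the 18 arrays. Over all 45 pairs this correlation ran from −0.24 to 0.85. It describes arrays that share scan and scaling, and it carries no test.

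**Figure D2:**
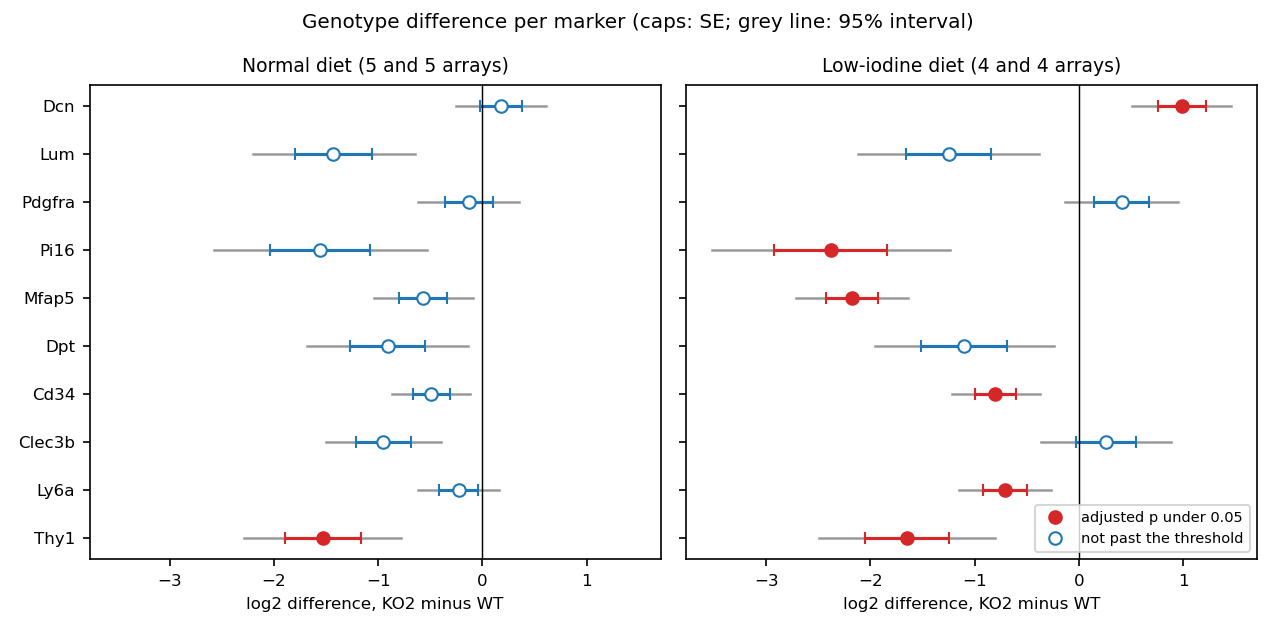
Difference in log2 level, KO2 minus WT, for each marker on the normal diet (left) and on low iodine (right); points with caps are the estimate and SE of the limma model, grey lines are 95% intervals, and filled red points have an adjusted p under 0.05. On low iodine the intervals of Dcn (0.51 to 1.46) and of Pi16 (−3.52 to −1.24) lie on opposite sides of 0, and those of Pdgfra and Clec3b include 0.

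Pdgfra encodes the receptor that marks most fibroblasts and binds the PDGF-A and PDGF-C ligands. Its brighter probe, which is spotted up to 10 times on an array, read −0.27, −1.15, −0.01 and −0.71 in WT and 0.49, −0.52, −0.44 and −0.03 in KO2 on low iodine. The genotypes overlapped, and the difference was 0.41 ± 0.26 (95% interval −0.13 to 0.95, adjusted p = 0.337). The other, dimmer probe gave −0.35 ± 0.45 (adjusted p = 0.69 over 26519 probes), so no direction can be read. The brighter probe ranged from −1.04 to −0.29 in WT and from −1.05 to −0.62 in KO2 on the normal diet, and the difference was −0.13 ± 0.23 (95% interval −0.62 to 0.35, adjusted p = 0.879). Of the other 5 PDGF ligand and receptor genes, 1 fell on low iodine. It was the ligand gene Pdgfd, at −1.05 ± 0.20 (adjusted p = 0.00214). The ligand gene Pdgfc, at −1.05 ± 0.39 (adjusted p = 0.0808), and the second receptor gene Pdgfrb, at −0.56 ± 0.28 (adjusted p = 0.204), were not called, and on the normal diet limma called none of the 5 and 0 had an unadjusted p under 0.05.

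Cd34, Ly6a and Thy1 encode proteins of the cell surface. Cd34 is a sialomucin of progenitor fibroblasts, endothelium and blood stem cells. On low iodine its levels were 4.14, 3.81, 4.09 and 4.27 in WT and 3.29, 3.08, 3.08 and 3.68 in KO2. All KO2 arrays were below all WT arrays, and the difference was −0.80 ± 0.20 (1.74-fold lower, adjusted p = 0.0132). With median scaling it was −0.65 and not called (adjusted p = 0.15). The WT arrays ran from 4.15 to 5.08 and the KO2 arrays from 3.95 to 4.26 on the normal diet, and the difference of −0.49 ± 0.18 was not called (adjusted p = 0.218). Markers of endothelium, a second source of Cd34 and Ly6a, moved alongside on low iodine: 7 of 17 measured genes fell and none rose. They included Eng (−1.63 ± 0.22, adjusted p = 0.000116), Tek (−1.33 ± 0.20, adjusted p = 0.000274) and Cdh5 (−1.47 ± 0.23, adjusted p = 0.000497), which encode the coreceptor endoglin, the angiopoietin receptor and VE-cadherin. The mean level of the 17 genes ran from 1.36 to 1.54 on WT and from 0.73 to 0.87 on KO2 low-iodine arrays, and none of the 17 was below background throughout. The part of endothelium in the fall of Cd34 and Ly6a was not tested. None of the 17 was called by limma on the normal diet, where 1 had an unadjusted p under 0.05.

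Ly6a encodes the surface antigen Sca-1, which is induced by interferon. On low iodine the WT levels lay within 3.28 to 3.34, and the KO2 levels were 2.77, 2.41, 2.43 and 2.76. The groups did not overlap, and the difference was −0.71 ± 0.21 (1.64-fold lower, adjusted p = 0.0293). This call was the least stable on low iodine: it was lost in 7 of 31 alternatives, with median scaling (adjusted p = 0.218) and when any 1 of 6 low-iodine arrays was left out. Those were each of the 4 WT replicates (adjusted p from 0.0534 to 0.0591), KO2 replicate 2 (0.0715) and KO2 replicate 3 (0.0676). Normal-diet levels were 1.17 to 1.88 in WT and 0.62 to 1.76 in KO2, and the difference was −0.23 ± 0.19 (adjusted p = 0.677). Of 8 other Ly6 family genes measured, many of which lie beside Ly6a on chromosome 15, none was called by limma on either diet, and 2 had an unadjusted p under 0.05 on each. On low iodine Ly6i differed by −0.64 ± 0.24 (adjusted p = 0.083), Ly6e by −0.64 ± 0.28 (adjusted p = 0.137) and Ly6c1 by 0.34 ± 0.25 (adjusted p = 0.441). These genes are similar in sequence, so a probe may read more than 1 of them.

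Thy1 encodes a surface glycoprotein linked to adhesion. It was the only marker called on both diets. On low iodine its brighter probe read 2.42, 2.16, 2.50 and 2.72 in WT and 0.77, 0.47, 0.62 and 1.35 in KO2, with no overlap. The difference was −1.65 ± 0.40 (3.13-fold lower, adjusted p = 0.0107), with −1.23 within slide 4 and −2.07 within slide 5. On the normal diet the probe read 3.08, 3.52, 3.52, 3.18 and 4.94 in WT and 1.15, 2.28, 1.79, 3.15 and 2.20 in KO2. WT replicate 5 stood above all other arrays, and KO2 replicate 4 reached into the WT range. The difference was −1.53 ± 0.36 (2.89-fold lower, adjusted p = 0.0428). This normal-diet call passed in 15 of 31 alternatives. It was lost without WT replicate 5 (−1.21, adjusted p = 0.0832) and with the slide as a block (adjusted p = 0.0761), and its within-slide values were −0.80, −1.05 and −2.39. It was also lost without WT normal replicate 2 or 3, without KO2 normal replicate 1, 2, 3 or 5, and without 1 of 6 low-iodine arrays (all but WT replicate 2 and KO2 replicate 4), at adjusted p from 0.0534 to 0.118. The other probe of Thy1 gave −1.70 ± 0.33 (adjusted p = 0.018 over 26519 probes) on the normal diet and −1.62 ± 0.37 (adjusted p = 0.00827) on low iodine, close to the brighter probe.

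Because mouse thymocytes and T cells carry much Thy1, their markers were read beside it. None of 13 measured T cell and thymocyte genes was called by limma on either diet, and their median difference was −0.99 on the normal diet and −0.19 on low iodine. An unadjusted p under 0.05 was found for 3 of the 13 on the normal diet, where 12 had a negative difference, and for 0 on low iodine. Their mean level was 0.08 in WT normal replicate 5, the array with the highest Thy1, and lay between −4.75 and −1.90 on the other 9 normal-diet arrays. On low iodine it ran from −4.29 to −2.33 in WT and from −3.86 to −3.43 in KO2, ranges that overlapped while those of Thy1 did not. Themis was above background on no low-iodine array, and Cd28 on no array of the KO2 normal group. Of 7 thymic epithelium genes, 3 fell on the normal diet (Prss16, Ccl25 and Psmb11, named after their values were seen) and limma called none on low iodine, where 0 had an unadjusted p under 0.05. The part of thymus tissue in the normal-diet value of Thy1 was not tested.

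**Figure D3:**
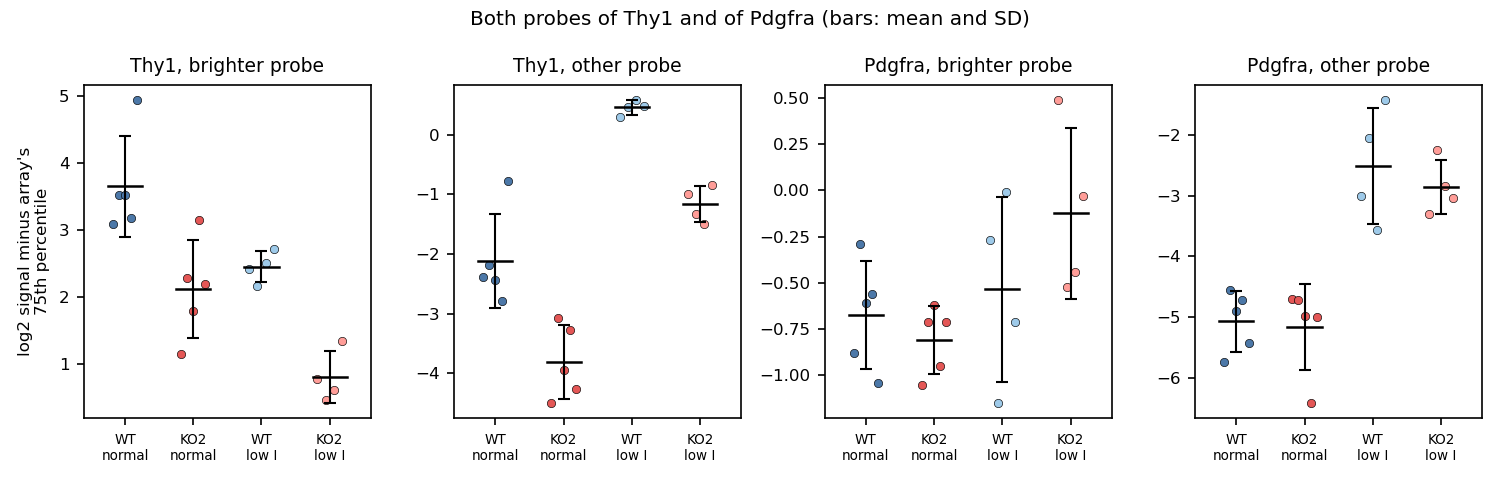
Log2 level of both probes of Thy1 and of Pdgfra on each array in the 4 groups, minus the array's 75th percentile; bars are the mean and SD, and each panel has its own scale. Within each diet both Thy1 probes are lower in KO2, whereas between the diets the brighter Thy1 probe goes down (WT −1.20) and the other goes up (WT 2.57).

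Promoter sequences are shown for Pi16 and Cd34, both called lower on low iodine, since RefSeq windows were at hand for only 4 of the markers (these and Pdgfra and Dpt). Each is the 250 bases before the gene start in build GRCm38.p6, plus strand, at chr17:29318632-29318881 for Pi16 and chr1:194938571-194938820 for Cd34.
Pi16: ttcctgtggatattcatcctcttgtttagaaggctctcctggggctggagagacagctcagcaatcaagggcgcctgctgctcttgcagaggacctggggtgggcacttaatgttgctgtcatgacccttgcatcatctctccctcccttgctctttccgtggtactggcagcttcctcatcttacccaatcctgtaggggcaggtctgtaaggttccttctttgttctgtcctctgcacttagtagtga
Cd34: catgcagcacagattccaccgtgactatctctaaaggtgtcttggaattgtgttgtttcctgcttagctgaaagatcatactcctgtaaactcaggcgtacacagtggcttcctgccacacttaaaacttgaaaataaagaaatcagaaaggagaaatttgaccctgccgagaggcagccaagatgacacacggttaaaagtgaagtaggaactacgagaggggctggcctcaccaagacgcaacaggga
GC content was 52.4% in the Pi16 window and 46.4% in the Cd34 window, against 54.4% in that of Pdgfra and 48.8% in that of Dpt. The windows were searched on both strands for the AP-1 motif (TGANTCA), the TEAD motif (GGAATG), a Glis core (TGGGGGGT), the GC box (GGGCGG) and the TATA box (TATAAA). None of the 4 windows held any of them, so no base is in capitals. These letters occur in 6.7%, 12.6%, 1.4%, 32.7% and 12.4% of 32851 mouse promoter windows of the same length.

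The unequal shift of the markers was also read within arrays, as the level of Dcn minus that of each other marker on the same array, which no constant shift of a whole array can change, though quantile normalization can. Dcn was taken as the reference after its values were seen. On low iodine this measure was higher in KO2 without overlap for 7 of the 9 other markers, where that held for 37.0% of all genes, and for 3 of 9 on the normal diet, where it held for 1.60%. Against Lum, Dcn shifted by 2.23 on low iodine and by 1.61 on the normal diet. Against Pi16 the shift on low iodine was 3.37, against Mfap5 it was 3.16 and against Thy1 it was 2.63. Against Pdgfra (0.58) and Clec3b (0.73) the genotypes overlapped. These shifts follow from the differences given above and are no separate evidence.

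Wider lists of fibroblast genes show where the markers sit. Of the adventitial progenitor list, which holds 5 of the markers, 6 of the 14 other measured genes fell on low iodine and none rose. They included Fbn1, Ackr3 (−1.72 ± 0.40, adjusted p = 0.00855), a chemokine-scavenging receptor, and Cd248 (−1.40 ± 0.34, adjusted p = 0.0101), the gene of endosialin. None of the 14 was called by limma on the normal diet, where 2 had an unadjusted p under 0.05 and Cd248 differed by −1.24 ± 0.30 (adjusted p = 0.0542). Of 18 collagen-making genes, 15 fell on low iodine and none rose, with a median of −2.03. Fstl1, a secreted follistatin-like protein gene, differed by −2.62 ± 0.24 (adjusted p = 5.35e-06), the matrix gene Fbln2 by −2.10 ± 0.20 (adjusted p = 8.8e-06), and Sparc, which encodes a collagen-binding protein, by −1.96 ± 0.20 (adjusted p = 1.21e-05). Of the 18, 5 fell on the normal diet, all of them collagen genes (Col15a1, Col1a2, Col3a1, Col14a1 and Col1a1, named after their values were seen), with a list median of −0.82.

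Of 15 genes of activated fibroblasts, 10 fell on low iodine, none rose and the median was −1.79. Cthrc1, a secreted collagen repeat protein gene, differed by −3.09 ± 0.33 (adjusted p = 2.44e-05), Postn, the periostin gene, by −3.21 ± 0.37 (adjusted p = 3.83e-05), and the collagen gene Col8a1 by −2.64 ± 0.28 (adjusted p = 1.97e-05). Cthrc1 was above background on only 1 of the 4 KO2 low-iodine arrays. None of the 15 was called by limma on the normal diet, where 5 had an unadjusted p under 0.05. Of 12 pericyte and smooth muscle genes 2 fell on low iodine and none rose. This list leaned lower, with 11 negative differences, a median of −0.42 and 4 genes with an unadjusted p under 0.05. Of 12 macrophage genes limma called none lower and 1 higher, Cd163 (0.70 ± 0.22, adjusted p = 0.0443). The macrophage list nevertheless leaned lower, with 10 negative differences, a median of −0.65 and 6 genes with an unadjusted p under 0.05. Of 9 measured adipocyte genes, with a median of 0.95, 1 rose: Lpl, which encodes lipoprotein lipase (1.81 ± 0.45, adjusted p = 0.0122). The 9 had 6 positive and 3 negative differences, and 5 had an unadjusted p under 0.05. All 12 cell division genes fell on low iodine, among them Cep55 (−7.21 ± 0.64), Nuf2 (−5.19 ± 0.46) and Melk (−5.88 ± 0.53), each with an adjusted p of 5.35e-06. On the 4 KO2 low-iodine arrays Melk was above background on none, Cep55 on 1 and Nuf2 on 3, so these sizes depend on the background level. On the normal diet 11 of the 12 also fell, with a median of −2.80 against −5.37 on low iodine. The part of dividing cells in the level of any marker was not tested. Lists of neighbouring tissues differed too. On low iodine 5 of 12 cartilage and tendon genes fell and none rose. On the normal diet 6 of 7 airway epithelium genes had a negative difference, with a median of −1.98. Of the 7, limma called none, and 4 had an unadjusted p under 0.05. The 12 skeletal muscle genes had a median of 2.32 on the normal diet and −1.87 on low iodine, with none called. The part of such tissues in the level of any marker was not tested.

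**Figure D4:**
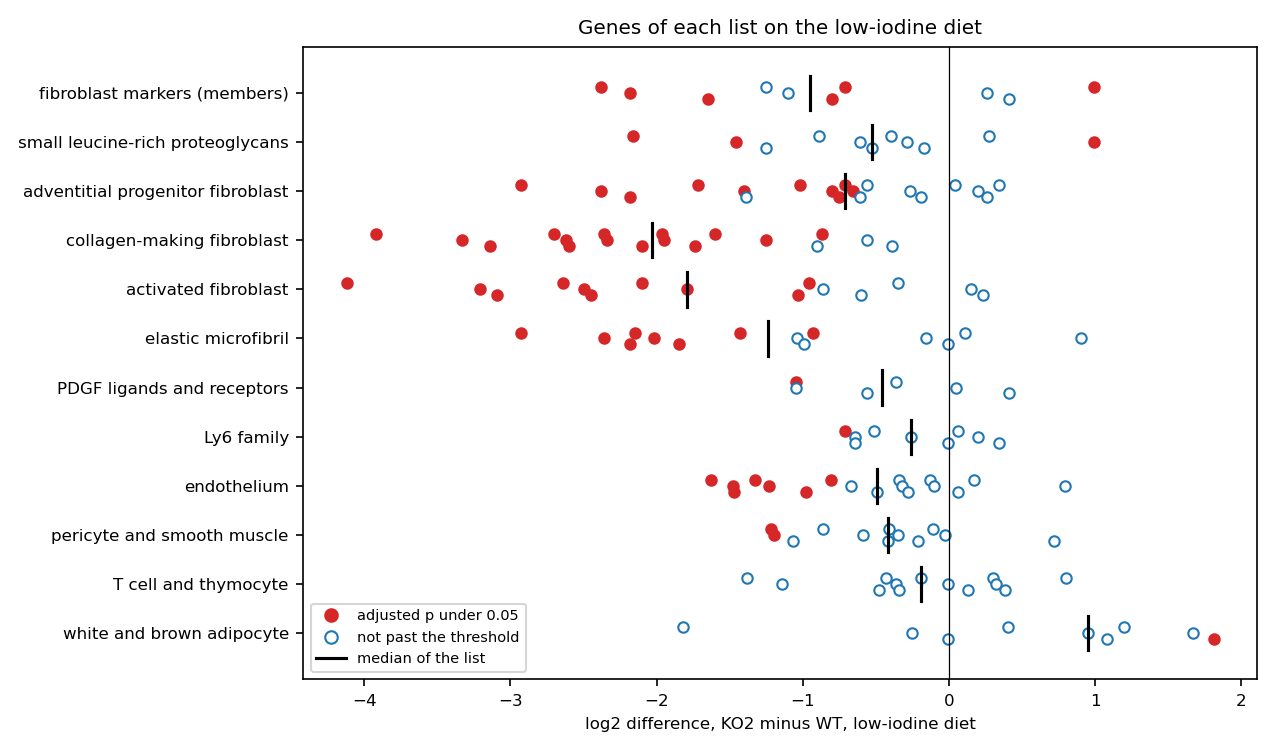
Log2 difference, KO2 minus WT, on low iodine for every measured gene of the markers and of 11 related lists; filled red points have a limma adjusted p under 0.05, and black bars are list medians. The collagen-making and activated fibroblast lists have medians of −2.03 and −1.79, the 10 markers −0.95, and Dcn is the only called gene of the fibroblast lists on the right of 0.

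The genes that varied most like each marker around the group means differed between markers. For Ly6a they were Rtp4 (Pearson correlation 0.94), Oasl2 (0.91) and Ifi27 (0.90), all known as interferon-induced genes. For Thy1 they were Birc5 (0.89), which encodes survivin of dividing cells, the histone gene H2ac4 (0.89) and Dtl (0.85), which acts in DNA replication control. For Lum the nearest was Islr (0.90), known from mesenchymal cells, for Pi16 Retnla (0.89), followed by Gng10 and Cd248 (0.87), and for Cd34 Kif3a (0.90), with the matrix gene Sparcl1 at 0.87. For Dcn they were Galnt4 (0.87), Foxc1 (0.83) and Kat8 (0.83), and for Mfap5 Zfp867 and Adamtsl2 (both 0.84). For Pdgfra the nearest was Ppm1b (0.89), for Clec3b Ppp1r42 (0.89) and for Dpt Zfp971 (0.79). These were picked as the highest correlations over 18 arrays that share scaling. Without the 2 arrays farthest from the median of the marker they ranged from 0.63 (Pi16 and Cd248) to 0.90 (Lum and Islr) for the genes named here.

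Between the diets the levels shifted for most of the array: 75.9% of all genes were called in WT (39.4% higher and 36.5% lower on low iodine) and 74.4% in KO2 (37.5% higher and 36.9% lower). Normal-diet arrays came from slides 1 to 3 and low-iodine arrays from slides 4 and 5, read on different scanners, so the diet and these differences between arrays cannot be told apart. Of the markers, 7 of 10 were called in WT and 10 of 10 in KO2, shares near the background for WT. Dcn had the largest difference, −4.60 ± 0.21 in WT and −3.79 ± 0.21 in KO2, while Ly6a was higher on low iodine, by 1.73 ± 0.20 and 1.25 ± 0.20 (all with limma adjusted p of 2.35e-05 or lower). The probes of Thy1 went opposite ways, −1.20 ± 0.38 against 2.57 ± 0.35 in WT and −1.31 ± 0.38 against 2.65 ± 0.35 in KO2. Those of Pdgfra differed in WT too, 0.14 ± 0.24 against 2.56 ± 0.43. With the array's median in place of the 75th percentile, the median of all genes moved to −0.91 in WT, so these differences between the diets are given as values only.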

How the data were processed

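Thyroid RNA of 18 mice was measured on single-colour Agilent arrays. Per the labels' protocols, a NuGEN Ovation Pico kit amplified 50 ng of RNA, and 5 ug of product was labelled with Cy3. Per the submitters' processing notes, Agilent Feature Extraction version 12 read the scans, and per the file headers releases 12.0.0.7 (normal diet, scanner G2505C) and 12.0.3.1 (low iodine, G2600D) were used. The authors deposited each spot's processed signal, a linear intensity from which the scanner software had subtracted background. Their summary table holds the same values.

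Control and outlier-flagged spots were left out, spots of a probe averaged, and log2 values reduced by the array's 75th percentile. Of 41174 probes, 28223 (68.5%) were matched by accession to 1 gene of the RefSeq table (GRCm38.p6). Probes well above background on at least 4 arrays were kept (26519), and the brightest stood for each of 17929 genes. One limma model (limma 3.58.1, R 4.3.3; tested on simulated data) held the 4 group means. Precision is limited by the number of arrays. Array slide, scaling, background correction, filter, probe choice and single arrays were varied.

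The 10 markers and the gene lists were chosen with earlier results of these data known. Besides the markers, the genes named are, per list, up to 3 with the smallest p on low iodine and any called against the majority, and the 3 genes most correlated with a marker after centring on group means. Clone and predicted-gene names were skipped. Genes named after their values were seen are marked so.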

Additional observations from a re-analysis of the deposited data

Results flagged for a closer look

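In WT mice on the normal diet, the Thy1 level of replicate 5, 4.94, stood apart from the other 4 arrays, which lay between 3.08 and 3.52. Such a gap within a group was looked for in 40 sets of arrays (10 markers in 4 groups), and chance gives about 1 in 20.

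The genotype difference of Mfap5 differed between the diets by −1.61 on the log2 scale (limma interaction, adjusted p = 0.0272), being −0.57 on the normal diet and −2.18 on low iodine. The call held in 23 of 30 alternatives. The diets lay on different slides and scanners, and the diet and these array sets cannot be told apart.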

How the results depend on the processing

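The low-iodine count of 6 markers ranged from 4 with median scaling to 8 with quantile normalization. It was 5 to 7 when 1 array was left out, where 15.0% of all genes were called with all arrays. Over all genes, 1400 higher and 1287 lower became 904 and 738 with median scaling and 2025 and 1841 with quantile normalization. Pi16, Mfap5 and Thy1 were called lower in all 31 alternatives, Cd34 in 30, Dcn (higher) in 29 and Ly6a in 24. In these 31 alternatives Dcn stayed opposite in sign to these markers on low iodine. The normal-diet count of 1 rests near the threshold: it was 0 with median scaling, with the slide as a block and with only the 2 groups fitted, 2 with normexp on the median signals, unscaled values or probes above background on all 18 arrays, 3 with a trend and robust eBayes, and 0 to 4 when 1 array was left out. It was 4 without KO2 normal replicate 4 and 4 without the brightest and the dimmest array together. The latter alternative and normexp on the median signals were chosen after seeing the data. The calls over all genes moved as well, from 249 to 201 with median scaling, 195 with the slide as a block and 3 with only the 2 groups. They were 394 with a trend and robust eBayes, 675 without KO2 normal replicate 4 and 807 without both arrays. In these settings both counts moved the same way. Elsewhere the marker count changed with little change over all genes. It was 2 with 263 genes under normexp, and 0 with 240 genes without KO2 low-iodine replicate 1. The interaction count of 1 fell to 0 with median scaling, unscaled values and the replicate block, and ranged from 0 to 1 when 1 array was left out. Over all genes 219 interaction calls became 90 with median scaling, 131 on unscaled values and 245 with the replicate block. Between the diets, leaving out 1 array gave 6 to 8 in WT and 9 to 10 in KO2. The cause of these changes was not tested.

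With the replicate number as a block, low iodine kept 6 calls and the normal diet 1, while the interaction of Mfap5 had an adjusted p of 0.0598. Same-numbered WT and KO2 arrays correlated at −0.04 to 0.32 on the normal diet and 0.03 to 0.13 on low iodine after centring, and not every array was closest to its own number, so the numbers were not taken as pairs.

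Some signs reversed. On low iodine these were Pdgfra by its other probe (−0.35) and within slide 5 (−0.12), and Clec3b unscaled (0.00). On the normal diet they were Pdgfra (0.17), Cd34 (0.05) and Ly6a (0.36) within slide 1, which holds 1 array of each genotype, and Dcn (−0.01) within slide 2. In the interaction they were Lum (−0.05 with quantile normalization, and −0.09 to 0.49 when 1 array was left out, with −0.05 and 0.00 among these), Dpt (0.09 with normexp, 0.11 without both arrays, −0.43 to 0.06 with 1 left out, 0.03 among these) and Thy1 (0.06 with median scaling, 0.05 without both arrays, −0.44 to 0.14 with 1 left out, 0.03 and 0.00 among these). Between the diets in WT they were Pdgfra (−0.16 quantile, −0.84 median scaling, −0.19 unscaled, −0.03 to 0.35 with 1 left out), Mfap5 (−0.52 median scaling), Cd34 (0.25 quantile) and Thy1 (0.69, mean of probes). In KO2 they were Pdgfra (−0.13) and Clec3b (−0.03), both with median scaling, and Thy1 (0.67, mean of probes).

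Scaling moved the balance of called genes. On low iodine 1400 were higher and 1287 lower, against 255 and 1637 unscaled, where the median of all genes was −0.29, and 904 and 738 with median scaling, where it was 0.13. On the normal diet 92 were higher and 157 lower, against 28 and 269 unscaled (median −0.11) and 54 and 147 with median scaling. In the interaction 64 and 155 became 14 and 117 unscaled (median −0.15), 36 and 54 with median scaling (0.13) and 281 and 424 with quantile normalization. Between the diets 7061 and 6541 in WT became 4268 and 9648 with median scaling (median −0.91), and 6716 and 6616 in KO2 became 4277 and 9304 (median −0.80) or 5098 and 7953 unscaled. The slide as a block gives no value between the diets, and the planned normexp on the mean signals was not run.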
